A study of Mus musculus with 12 samples.

Results

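Glycolysis and lactate genes were examined as a group of 10 genes, Hk1, Hk2, Pfkp, Pfkl, Aldoa, Pgk1, Eno1, Pkm, Ldha and Pdk1, out of 24906 genes in each deposited expression table. They were chosen by name, and all 10 were found in both tables and passed the filter on low values. RNA-Seq had been performed on 12 libraries of organoids, which are cell clusters grown in culture, derived from intestinal tumors of Smad4 f/f; BRAF V600E/+; Villin-CreERT2 mice, in which the Villin promoter directs gene deletion to the intestinal epithelium. All 12 libraries, controls included, carried the genotype Smad4KO; BRAFV600E/+; pINDUCER-SMAD4, so that every organoid line lacked endogenous SMAD4, carried 1 activated BRAF allele and held a lentiviral construct that expresses SMAD4 in the presence of doxycycline (dox). Organoids received 4 µg/mL dox or were left untreated for 48 h. The age of the animals at tumor collection is not given in the labels. Each line number was taken to name organoids of a single animal, so a line is a model of that animal's tumor only.

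BME, a gel of basement membrane extract, was used for 6 libraries, namely untreated lines 682, 700 and 889, dox lines 700 and 889, and a further library of line 682 labelled as dox but marked as mock. The labels of this library conflict, since its title and genotype read like those of an induced library. The study compares 2 dox with 4 vehicle libraries, so it was placed among the controls, and its change from untreated line 682 is given separately as the mock pair. The other 6 libraries came from organoids grown without matrix on plastic, with lines 560, 700 and 889 each untreated and with dox. In BME, dox libraries had 17.2 and 27.3 FPKM of Smad4 against 6.23 to 8.88 in the untreated and 10.3 in the mock library. On plastic, Smad4 was at 18.1 to 73.6 FPKM with dox and 1.54 to 4.76 untreated. FPKM counts fragments per kilobase of a transcript relative to library depth. Reads rebuilt from FPKM totalled 14531214 to 16335937 for BME libraries and 17021550 to 21068260 for plastic libraries, and the 10 genes had between 231 and 97245 reads each in any library. The 7 epithelial markers each reached 1 FPKM in a library of every group and summed to between 4156 and 17363 FPKM. The 7 mesenchymal markers summed to between 0.224 and 7.07 FPKM and the 4 endothelial markers to between 0 and 3.65. The 7 immune markers summed to between 2.83 and 39.0, with the macrophage marker Adgre1 at 0 in all 12 libraries. Most of the immune sum on plastic came from Cd68, at 2.70 to 38.7 FPKM with the highest level in dox line 889. In bulk RNA, fewer cells of a type and less RNA per cell cannot be told apart.

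Glycolysis converts glucose to pyruvate in the cytosol. Hexokinases trap glucose as glucose 6-phosphate, phosphofructokinases carry out the committed and most strongly regulated step, and aldolase, phosphoglycerate kinase, enolase and pyruvate kinase follow in that order. Lactate dehydrogenase turns pyruvate into lactate and regenerates NAD+, whereas pyruvate dehydrogenase (PDH) sends pyruvate into mitochondria, a step that PDH kinases such as PDK1 block. Many of these genes are known targets of the hypoxia-inducible factor HIF1, and high expression of this group is a common feature of tumors and of fast-growing cells.

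None of the 10 genes passed the test for a change with dox in BME, on plastic or between the environments. Smad4, the gene that dox induces, did not pass it either, with a fitted change of 1.36 in BME (limma adjusted p 0.959) and 3.42 on plastic (limma adjusted p 0.162). The level of most of them differed more between the untreated lines than between dox and untreated libraries of a line, in BME for 9 of 10 genes against 72.8% of all genes tested and on plastic for 8 of 10 against 50.4%. In BME they were mostly higher with dox in line 700 (7 of 10, against 48.3% of all genes tested) and lower with dox in line 889 (10 of 10, against 50.6%), and none moved in the same direction in all 5 dox pairs. The same-line pairs, the fitted changes and the level of each gene in every library follow.

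The core letters of the HIF1 motif were searched for in the promoter windows of the members, and 3 windows are printed, Ldha because its window holds the most matches among the members, and Pgk1 and Pdk1 because they are 2 of the 3 members that were lower with dox in both BME pairs. The windows come from RefSeq (GRCm38.p6) and run from 250 bases before to 50 bases after an annotated transcript start, written on the strand of the gene. Capitals mark ACGTG or GCGTG, the core letters of the HIF1 motif, on either strand, and matches that overlap, as in CACGTG, are counted as 1 site. The windows are chr7:46845554-46845853 (+) for Ldha, chrX:106186850-106187149 (+) for Pgk1 and chr2:71872974-71873273 (+) for Pdk1.
Ldha: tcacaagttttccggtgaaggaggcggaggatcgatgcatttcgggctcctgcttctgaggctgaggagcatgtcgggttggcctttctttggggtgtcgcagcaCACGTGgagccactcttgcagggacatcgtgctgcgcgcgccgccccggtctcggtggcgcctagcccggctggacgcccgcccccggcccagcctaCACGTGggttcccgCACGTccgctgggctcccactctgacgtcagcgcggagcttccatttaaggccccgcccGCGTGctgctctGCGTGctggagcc
Pgk1: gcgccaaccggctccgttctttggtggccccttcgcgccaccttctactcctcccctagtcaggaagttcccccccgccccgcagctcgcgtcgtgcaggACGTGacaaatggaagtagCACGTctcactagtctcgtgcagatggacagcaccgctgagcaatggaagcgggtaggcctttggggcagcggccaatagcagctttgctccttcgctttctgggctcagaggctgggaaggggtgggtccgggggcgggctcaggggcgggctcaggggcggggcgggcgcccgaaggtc
Pdk1: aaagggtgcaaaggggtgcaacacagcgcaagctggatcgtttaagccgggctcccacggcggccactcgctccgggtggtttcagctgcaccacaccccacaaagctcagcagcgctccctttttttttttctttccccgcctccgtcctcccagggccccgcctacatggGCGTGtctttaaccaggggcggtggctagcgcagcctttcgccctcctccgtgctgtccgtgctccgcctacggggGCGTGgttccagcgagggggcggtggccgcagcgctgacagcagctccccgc
The Ldha window holds 5 sites, while those of Pgk1 and Pdk1 hold 2 each. Of 32851 mouse promoter windows of the same length, 43.8% hold at least 1 such site (19.6% hold ACGTG and 32.4% GCGTG) and 0.767% hold 5 or more. All 10 genes matched the table with 18 windows in total, of which 14 hold a site, and Ldha and Pdk1 each have a further annotated start that is not shown. CAGAC, the letters of a SMAD binding motif, was present on either strand in 5 of the 18 windows and in 49.6% of all windows. These matches describe letters only.

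The genes differed widely in level. In BME, mean FPKM ran from 13.5 for Hk2 to 1937 for Aldoa, and on plastic from 9.86 for Pdk1 to 1732 for Aldoa. Aldoa ranked 39th of 24906 genes in BME and 36th on plastic. In BME the order was Aldoa, Pkm, Ldha, Eno1, Pgk1, Pfkl, Hk1, Pfkp, Pdk1 and Hk2. Ranges over the 6 libraries overlapped between neighbors in this order except between Aldoa and Pkm, Pgk1 and Pfkl, and Pdk1 and Hk2. On plastic the order was Aldoa, Eno1, Pkm, Ldha, Pgk1, Hk1, Pfkl, Pfkp, Hk2 and Pdk1, and the only neighbors whose ranges did not overlap were Ldha and Pgk1, and Pgk1 and Hk1. The tables were normalized separately, so no level was tested between BME and plastic.

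**Figure D1:**
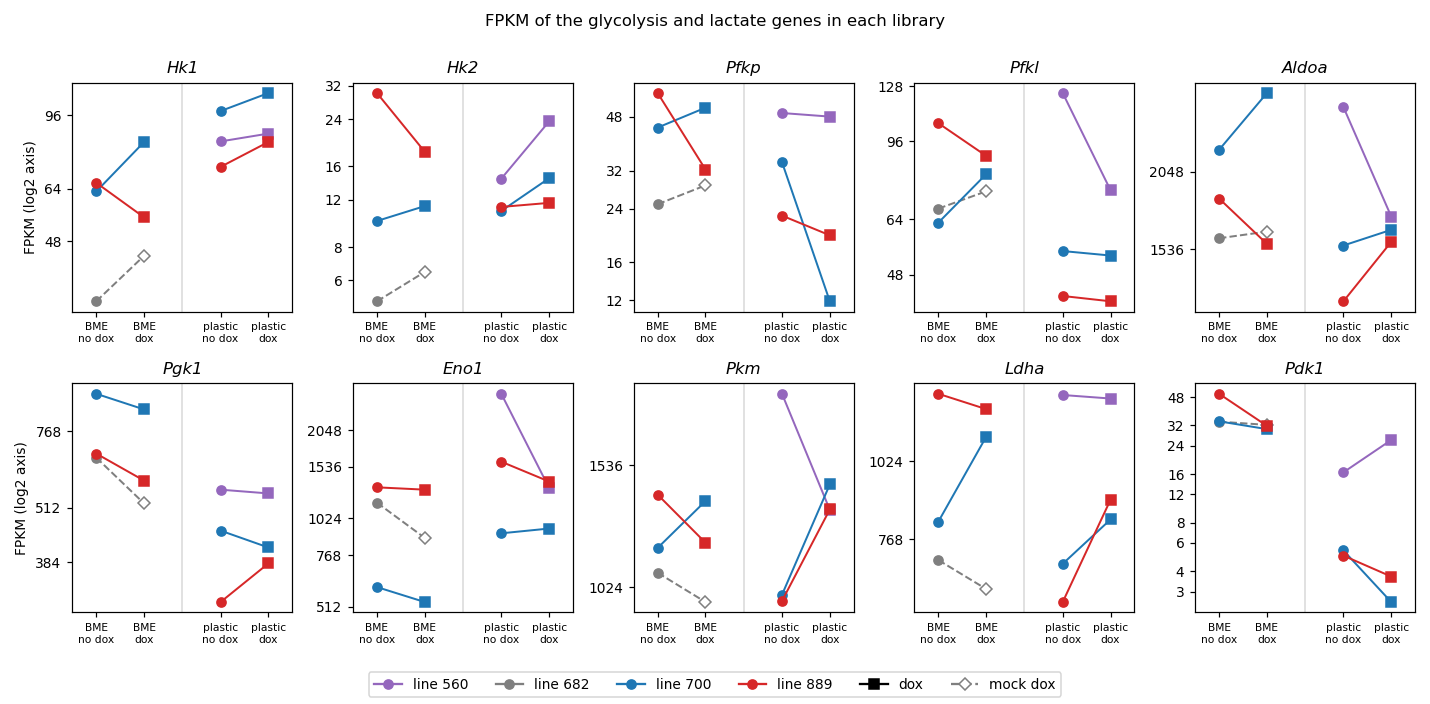
FPKM of each gene (log2 axis, own scale per gene) in the 12 libraries, with circles for untreated, filled squares for dox and the open diamond for mock dox, colors for lines and a line joining each same-line pair. The axis places both tables side by side but levels are not comparable between BME and plastic, and the lines of a table lie further apart than most pairs, as for Hk2 in BME (5.02 to 30.1 FPKM untreated).

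Hk1 and Hk2 encode hexokinases, of which HK1 is the form found in most tissues and HK2 the inducible form often raised in tumors. Hk1 (chromosome 10, 61731603 to 61842656, minus strand, NCBIM37) was at 34.5, 63.1 and 66.1 FPKM in untreated lines 682, 700 and 889 in BME, at 82.8 and 54.7 in dox lines 700 and 889, and at 44.3 in the mock library. On plastic, Hk1 was at 83.0, 98.1 and 72.2 FPKM in untreated lines 560, 700 and 889 and at 86.7, 108 and 82.8 with dox. The dox library was thus the higher of the pair in BME line 700 and in all 3 plastic lines, and the groups overlapped in both tables. The fitted change of Hk1 was 0.41 in BME (SE 0.32, limma adjusted p 0.959) and 0.13 on plastic (SE 0.21, limma adjusted p 0.915), with changes here and below in log2(FPKM + 1), which understates the change of low genes. In BME it was 0.12 without dox line 700, 0.71 without dox line 889 and 0.06 with the line as a replicate block, and on plastic it was 0.02 without dox line 700 and 0.25 without untreated line 700.

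Hk2 (chromosome 6, 82675019 to 82724448, minus strand) was at 5.02, 10.01 and 30.1 FPKM in untreated lines 682, 700 and 889 in BME, at 11.4 and 18.1 in dox lines 700 and 889, and at 6.46 in the mock library. On plastic, Hk2 was at 14.4, 10.9 and 11.3 FPKM untreated and at 23.6, 14.5 and 11.7 with dox in lines 560, 700 and 889. The untreated lines in BME spanned 5.99-fold, the widest span of any of the 10 genes, and line 889 lay above the other 2 lines with and without dox. The fitted change in BME was 0.47 (SE 0.66, limma adjusted p 0.965), but the mean of both same-line pairs was -0.26, and without dox line 889 the change was 0.15 and without untreated line 889 it was 0.96. On plastic the fitted change was 0.37 (SE 0.29, limma adjusted p 0.806), with 0.095 without dox line 560 and 0.57 without dox line 889. Hk1 and Hk2 were higher with dox in every plastic pair, as were 18.6% of all genes tested, but Hk1 was so in only 1 and Hk2 in only 2 of the 3 pairs when libraries were scaled to an equal FPKM sum.

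Pfkp and Pfkl encode the platelet and liver forms of phosphofructokinase. Pfkp (chromosome 13, 6579014 to 6648023, minus strand) was at 24.8, 44.3 and 57.4 FPKM in untreated lines 682, 700 and 889 in BME, at 51.4 and 32.2 in dox lines 700 and 889, and at 28.6 in the mock library. On plastic, Pfkp was at 49.4, 34.1 and 22.8 FPKM untreated and at 48.1, 11.9 and 19.6 with dox in lines 560, 700 and 889. The 2 lines present in both tables did not share a pattern: line 700 was higher with dox by 0.21 in BME and lower by 1.44 on plastic (a change of -1.44), the widest change of any gene of the group in any pair, while line 889 was lower with dox in both (-0.81 and -0.20). The fitted change was 0.15 (SE 0.38, limma adjusted p 0.980) in BME, where the mean of both pairs was -0.30, and -0.56 (SE 0.53, limma adjusted p 0.836) on plastic. The plastic change was -1.09 (limma adjusted p 0.443) without dox line 560 and -0.13 without dox line 700.

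Pfkl (chromosome 10, 77449692 to 77472828, minus strand) was at 67.7, 62.9 and 106 FPKM in untreated lines 682, 700 and 889 in BME, at 81.0 and 89.1 in dox lines 700 and 889, and at 74.1 in the mock library. On plastic, Pfkl was at 124, 54.3 and 43.0 FPKM untreated and at 74.5, 53.0 and 41.8 with dox in lines 560, 700 and 889. Line 560 stood above the other plastic lines and had the only large difference within a pair (-0.72, against -0.03 and -0.04). For Pfkl the fitted change was 0.16 in BME (SE 0.23, limma adjusted p 0.965) and -0.26 on plastic (SE 0.43, limma adjusted p 0.918), and the latter was 0.18 without untreated line 560. Pfkp and Pfkl were lower with dox in every plastic pair, as were 18.7% of genes tested. This held for Pfkl under both other scalings of the libraries, but for Pfkp in only 2 of 3 pairs under either.

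Aldoa, which encodes the aldolase of muscle and most growing cells, lies on chromosome 7 (133938748 to 133944265, minus strand). In BME it was at 1600, 2220 and 1854 FPKM in untreated lines 682, 700 and 889, at 2740 and 1567 in dox lines 700 and 889, and at 1640 in the mock library. On plastic, Aldoa was at 2601, 1558 and 1267 FPKM untreated and at 1734, 1651 and 1579 with dox in lines 560, 700 and 889. The dox libraries on plastic lay close together, within the span of the untreated lines. For Aldoa the fitted change was 0.19 in BME (SE 0.28, limma adjusted p 0.965) and -0.06 on plastic (SE 0.33, limma adjusted p 0.981), and its direction turned to -0.21 without BME dox line 700 and to 0.23 without plastic untreated line 560.

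Pgk1, whose enzyme makes ATP from 1,3-bisphosphoglycerate, lies on chromosome X (103382439 to 103399038, plus strand). In BME it was at 668, 935 and 682 FPKM in untreated lines 682, 700 and 889, at 861 and 591 in dox lines 700 and 889, and at 524 in the mock library. On plastic, Pgk1 was at 564, 454 and 311 FPKM untreated and at 552, 415 and 382 with dox in lines 560, 700 and 889. Pgk1 was lower in the treated library of all 3 BME pairs, the mock pair included (-0.35, against -0.12 and -0.21 for dox). The mock value was -0.17 when libraries were scaled to an equal FPKM sum, against -0.19 and -0.25 for dox. The fitted change was 0.05 (SE 0.28, limma adjusted p 0.993) in BME, where the mean of both dox pairs was -0.16, and 0.05 (SE 0.29, limma adjusted p 0.984) on plastic.

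Eno1, which encodes alpha-enolase, lies on chromosome 4 (149610830 to 149622988, plus strand). It was at 1158, 597 and 1307 FPKM in untreated lines 682, 700 and 889 in BME, at 531 and 1283 in dox lines 700 and 889, and at 878 in the mock library. On plastic, Eno1 was at 2725, 911 and 1598 FPKM untreated and at 1301, 946 and 1368 with dox in lines 560, 700 and 889. Line 700 was the lowest for Eno1 with and without dox in both tables, while it was the highest for Aldoa in BME, so that the ratio of Aldoa to Eno1 was 3.72 and 5.16 in BME line 700 and 1.22 to 1.87 in the other 4 BME libraries. Eno1b, a near-identical copy, is listed separately at 2.27 to 9.38 FPKM, so the division of reads between both copies is uncertain, and Aldoa, Pgk1, Ldha and Pkm likewise have processed copies in the mouse genome. For Eno1 the fitted change was -0.19 in BME (SE 0.45, limma adjusted p 0.979) and -0.41 on plastic (SE 0.43, limma adjusted p 0.859). The BME change was 0.44 without dox line 700, and the plastic change was -0.02 without untreated line 560.

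Pkm, which encodes the muscle-type pyruvate kinases M1 and M2, lies on chromosome 9 (59504383 to 59527182, plus strand). It was at 1075, 1168 and 1393 FPKM in untreated lines 682, 700 and 889 in BME, at 1364 and 1188 in dox lines 700 and 889, and at 976 in the mock library. On plastic, Pkm was at 1945, 1000 and 979 FPKM untreated and at 1325, 1441 and 1326 with dox in lines 560, 700 and 889. The plastic dox libraries lay between line 560 and the other 2 untreated lines, so Pkm was lower with dox in line 560 (-0.55) and higher in lines 700 and 889 (0.53 and 0.44). The fitted change was 0.16 in BME (SE 0.20, limma adjusted p 0.963) and 0.14 on plastic (SE 0.33, limma adjusted p 0.952), where it was 0.48 (limma adjusted p 0.253) without both libraries of line 560. The mean of both BME pairs was -0.0027. The tables give 1 value per gene, so the M1 and M2 transcripts could not be separated.

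Ldha, which encodes the lactate dehydrogenase subunit that favors lactate formation, lies on chromosome 7 (54096845 to 54110997, plus strand). In BME it was at 712, 820 and 1314 FPKM in untreated lines 682, 700 and 889, at 1121 and 1241 in dox lines 700 and 889, and at 640 in the mock library. On plastic, Ldha was at 1308, 702 and 610 FPKM untreated and at 1291, 827 and 889 with dox in lines 560, 700 and 889. Within pairs, Ldha was higher with dox in line 700 in both tables (0.45 and 0.24) and in line 889 on plastic (0.54), and near its untreated level in BME line 889 (-0.08) and in line 560 (-0.02). The fitted change of Ldha was 0.50 (SE 0.31, limma adjusted p 0.959) in BME, the largest of the group there, and 0.25 (SE 0.36, limma adjusted p 0.903) on plastic. The BME change was 0.18 with the line as a replicate block, and the plastic change was 0.036 without untreated line 889 and 0.59 without untreated line 560.

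Pdk1, the PDH kinase of the group, lies on chromosome 2 (71711281 to 71741915, plus strand). It was at 33.8, 33.9 and 50.2 FPKM in untreated lines 682, 700 and 889 in BME, at 30.4 and 31.8 in dox lines 700 and 889, and at 32.3 in the mock library. Both dox libraries lay below all 4 control libraries in BME, the only non-overlap of the group in either table, and 5.83% of all genes tested in BME were lower with dox without overlap. No member was higher without overlap in BME (6.33% of genes tested), and none differed without overlap in either direction on plastic (7.87% higher, 7.26% lower). On plastic Pdk1 was at 16.4, 5.39 and 5.01 FPKM untreated and at 26.0, 2.58 and 3.72 with dox in lines 560, 700 and 889, so that line 560 stood apart at a higher level and moved the other way (0.63, against -0.83 and -0.35). The fitted change was -0.24 in BME (SE 0.21, limma adjusted p 0.959) and -0.18 on plastic (SE 0.83, limma adjusted p 0.976). With the line as a replicate block the BME change was -0.40 (limma adjusted p 0.673), and without both libraries of line 560 the plastic change was -0.59 (limma adjusted p 0.295).

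The pairs were then compared as a whole. In BME, the median change of the 10 genes was 0.22 in line 700, -0.24 in line 889 and -0.01 in the mock pair, where 5 genes were higher and 5 lower. Pgk1, Eno1 and Pdk1 were lower in both BME dox pairs, as were 29.5% of all genes tested, and no member was higher in both, against 27.2%. In the mock pair Pgk1, Eno1 and Pdk1 were also lower (-0.35, -0.40 and -0.065), and with an equal FPKM sum they were at -0.17, -0.22 and 0.11 there. On plastic, the median change was -0.03 in line 560 (3 higher, 7 lower), 0.07 in line 700 (6 higher, 4 lower) and 0.12 in line 889 (6 higher, 4 lower). Over all 5 dox pairs no gene of the group kept 1 direction, while 8.70% of genes tested in both tables were higher and 8.06% lower throughout. Scaling libraries to an equal FPKM sum moved the median of all genes by 0.14 in the mock pair and by 0.33, -0.16 and -0.17 in plastic lines 560, 700 and 889. The members higher were then 6, 3 and 4 of 10 in those plastic lines, where 69.6%, 32.7% and 36.5% of all genes tested were higher. In the mock pair 8 of 10 were higher, against 69.9%. The BME dox counts stayed at 7 and 0 of 10 in lines 700 and 889, against 39.0% and 41.4% of all genes tested. Scaling to total rebuilt reads moved plastic line 700 by -0.14.

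**Figure D2:**
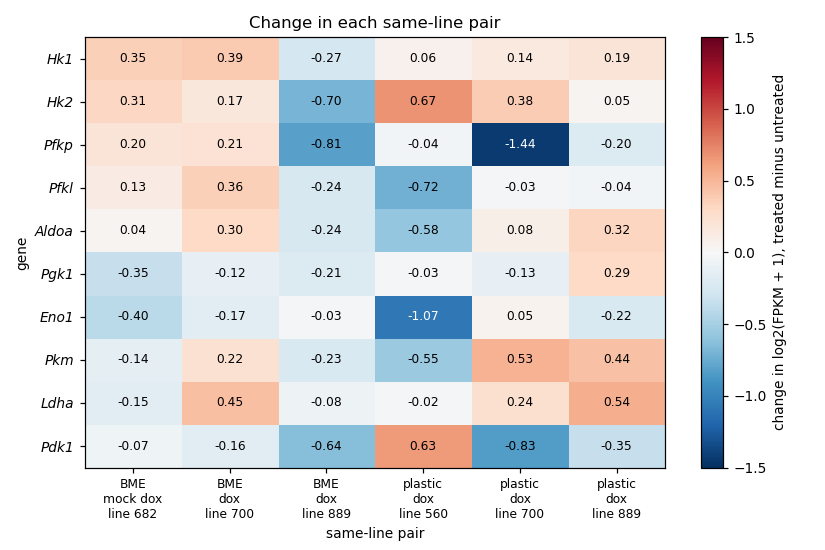
Change in log2(FPKM + 1), treated minus untreated, for each gene (rows) in each same-line pair (columns), from blue for lower to red for higher, with the mock pair in the left column. The BME line 889 column is lower for all 10 genes (-0.81 to -0.03), the BME line 700 column is higher for 7, and no row has 1 color over the 5 dox columns.

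Differences between the lines were compared with those between treatments. In BME, the log2 range over the 3 untreated lines was larger than the widest dox change of either pair for 9 of the 10 genes, all but Pdk1 (0.56 against 0.64), and for 72.8% of all genes tested. On plastic this held for 8 of the 10 genes, all but Hk2 (0.37 against 0.67) and Pfkp (1.08 against 1.44), and for 50.4% of genes tested. Untreated line 889 had the highest level of 8 of the 10 genes in BME and the lowest of 8 on plastic, while untreated line 560 was the highest of 9 on plastic. Untreated line 682 had the lowest level of 8 in BME. These counts were not set against all genes tested. Lines 682 and 560 were each present in 1 table only. Both libraries of line 682 were BME controls, so without a block the BME dox change cannot be told apart from a difference between line 682 and the other lines.

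The limma test, fitted across all genes tested in a table, called 0 of the 10 genes in BME, where 0.0231% of 12996 genes passed (adjusted p under 0.05 with a change of more than 1 either way), and 0 of 10 on plastic, where 0.0324% of 12333 passed. At an unadjusted p under 0.05 the count was also 0 of 10 in both tables, against 4.09% and 8.29% of genes tested. A fitted change of more than 0.5 either way was found for none of the 10 genes in BME (12.9% of genes tested) and for Pfkp alone on plastic (21.6%). The median fitted change of the group was 0.16 in BME (all genes tested, -0.01) and -0.01 on plastic (all genes tested, 0.01). The BME median was 0.088 without dox line 700 and 0.29 without dox line 889, and it turned to -0.05 with the line as a replicate block and to -0.06 with the mock library counted with dox. The 95% intervals of all 10 genes included 0 in both tables and were wide. For Ldha the interval ran from -0.25 to 1.24 in BME and from -0.62 to 1.12 on plastic, for Hk2 from -1.12 to 2.06 in BME, and for Pdk1 from -2.16 to 1.80 on plastic. The narrowest was that of Pkm in BME, from -0.32 to 0.63.

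**Figure D3:**
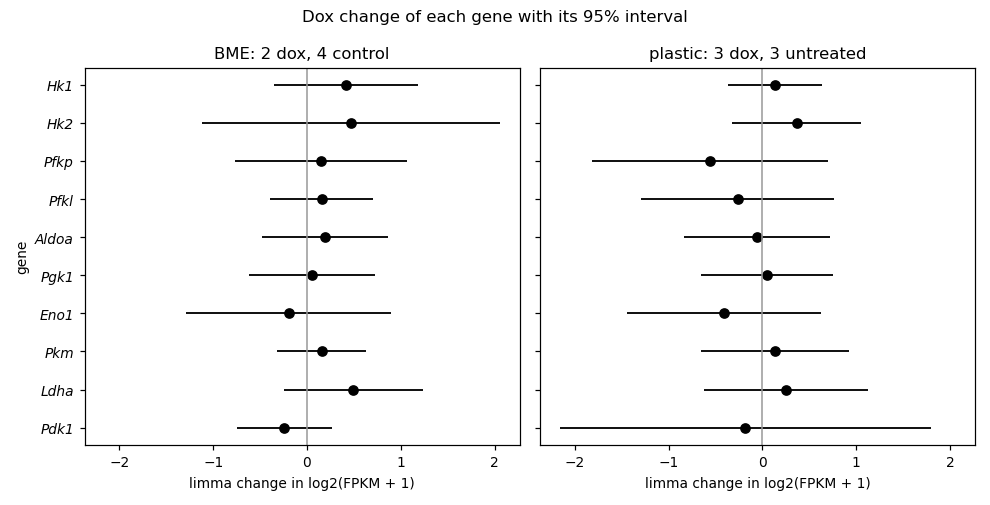
Fitted dox change in log2(FPKM + 1) (points) with its 95% interval (bars) for each gene, in BME (2 dox against 4 control libraries) and on plastic (3 against 3). Every bar crosses 0, and the widest are those of Hk2 in BME (-1.12 to 2.06) and Pdk1 on plastic (-2.16 to 1.80).

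Whether the response to dox depended on the environment was tested as an interaction over 11977 genes kept in both tables. None of the 10 genes passed (0.00% of all genes did), and 0 of 10 were at an unadjusted p under 0.05, against 2.53% of genes tested. The only difference of more than 0.5 either way (19.5% of genes tested) was that of Pfkp, whose change was lower on plastic than in BME by an estimated 0.71 (difference -0.71, SE 0.71, 95% interval -2.28 to 0.86, limma adjusted p 1.000). It was -1.24 without plastic dox line 560, -0.27 without plastic dox line 700 and -0.26 with the line as a replicate block. For the other 9 genes the difference lay between -0.42 (Pfkl) and 0.06 (Pdk1).

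Levels within a library were compared between genes of the same step, since FPKM is per length. Hk1 made up 67.7% to 87.4% of the summed hexokinase FPKM in BME and 77.7% to 89.7% on plastic, and Hk2 nearly all of the rest. The Hk2 share was 12.01% to 13.6% in BME lines 682 and 700 with or without treatment, but 30.8% in untreated and 24.7% in dox line 889. Pfkl led phosphofructokinase in every library with 53.5% to 67.5% in BME and 58.1% to 77.3% on plastic, and Pfkp followed with 24.4% to 37.6% and 17.4% to 37.5%. The lowest Pfkp share, 17.4%, was that of plastic dox line 700, where the untreated share was 37.4%. Aldoa held 89.0% to 95.7% of aldolase in BME and at least 94.3% on plastic, Eno1 at least 97.5% of enolase, Pkm 90.9% to 95.1% and 93.7% to 99.0% of pyruvate kinase, and Pgk1 all of phosphoglycerate kinase.

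Among the L-lactate dehydrogenase genes Ldha, Ldhb and Ldhc, Ldha made up at least 99.97% of the summed FPKM in every library. Ldhd, which acts on D-lactate, is described with lactate handling. Ldhb, whose subunit favors the reverse reaction, was at most 0.197 FPKM and was listed at 0 in the mock library, in both BME dox libraries and in plastic dox line 700. Among PDH kinases no gene led throughout. The Pdk1 share was 34.0% to 54.3% in BME, with the highest in untreated line 889, and on plastic it was 33.8% and 45.4% in line 560 but 10.5% to 19.7% in lines 700 and 889. In those 4 plastic libraries Pdk3 held 42.2% to 48.7%, against 8.18% to 17.0% in BME. Pdk2 was the most abundant PDH kinase in BME lines 682 and 700, at 42.9 to 52.7 FPKM, and Pdk4 was at most 0.219 FPKM in any library.

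**Figure D4:**
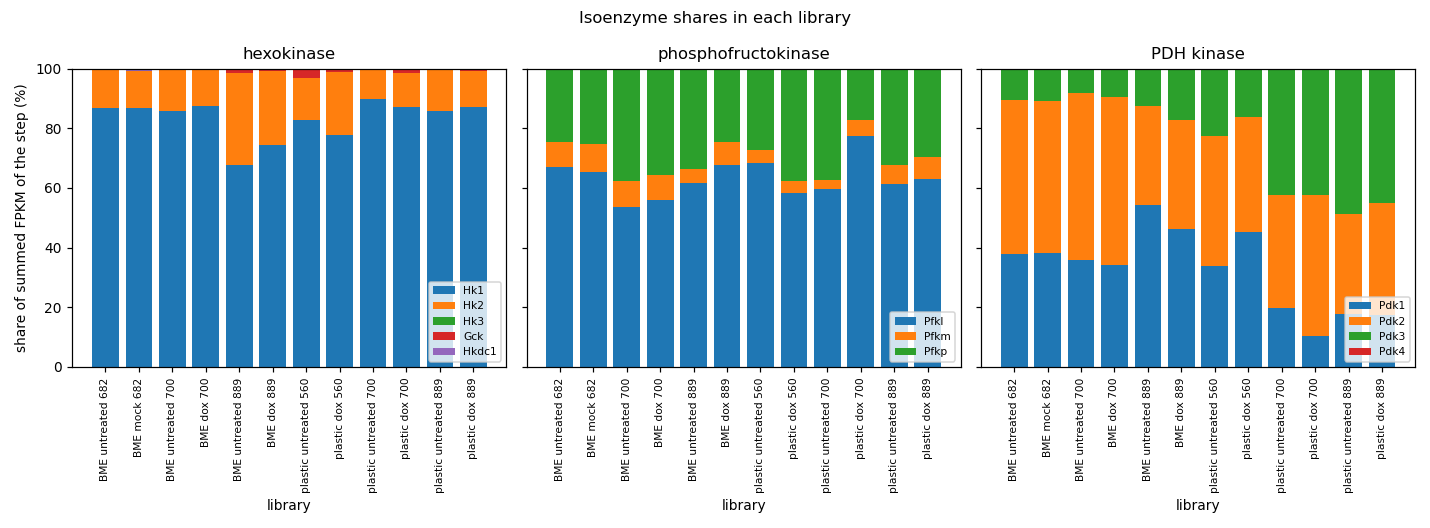
Share of the summed FPKM of a step (%) taken by each isoenzyme gene in the 12 libraries, for hexokinase, phosphofructokinase and PDH kinase (stacked bars, dox or mock bar to the right of its untreated bar). Hk1 and Pfkl lead in every library, Hk2 has its highest share in untreated BME line 889 (30.8%), and Pdk1 has 10.5% to 19.7% in plastic lines 700 and 889.

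The other genes of the pathway were taken from lists of glucose transporters, remaining glycolytic enzymes, fructose 2,6-bisphosphate regulators, lactate handling and the pentose phosphate branch. None of them passed the adjusted test in BME or on plastic. Of all pathway list genes tested outside the group, those below and those in the closing observations included, 3 of 71 in BME and 12 of 73 on plastic were at an unadjusted p under 0.05, which is 4.23% and 16.4% against 4.09% and 8.29% of all genes.

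Slc2a1, which encodes the glucose transporter GLUT1, was at 32.1, 76.2 and 132 FPKM in untreated lines 682, 700 and 889 in BME, at 101 and 115 in dox lines 700 and 889, and at 42.4 in the mock library. On plastic it was at 157, 187 and 157 FPKM untreated and at 146, 248 and 265 with dox in lines 560, 700 and 889. Its fitted change was 0.81 in BME (SE 0.55, limma adjusted p 0.959) and 0.35 on plastic (SE 0.28, limma adjusted p 0.805). Its levels overlapped between the groups in both. The BME dox pairs of Slc2a1 were split, with line 700 higher (0.40) and line 889 lower (-0.19), and the mock pair was at 0.39. Both libraries of line 682, which were controls, had its lowest BME levels. Of the 11 transporters listed, 4 were tested in BME (median change -0.20) and 5 on plastic (0.31). The lowest fitted change was that of Slc2a9, a urate transporter, at -0.47 in BME and -0.22 on plastic, and Slc5a1, the sodium-coupled glucose transporter, was at -0.39 and 0.64.

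Of 16 remaining glycolytic enzymes, 13 were tested in BME (12 higher, 1 lower, median 0.22) and 14 on plastic (10 higher, 4 lower, median 0.13), as fitted. By pair, 11 of the 13 were higher in BME line 700, 5 in BME line 889 and 8 in the mock pair. On plastic, 5 of the 14 were higher in line 560 and 12 in each of lines 700 and 889. Between 48.1% and 50.45% of all genes tested were higher in these pairs. Gapdh, the most abundant of them, was at 3950 to 6591 FPKM in BME and 5534 to 12588 on plastic, with a fitted change of 0.40 (SE 0.22, limma adjusted p 0.959) and -0.02 (SE 0.40, limma adjusted p 0.994). For Pklr, the liver and red cell pyruvate kinase, the fitted change was 0.63 in BME (SE 0.20, limma adjusted p 0.959) and 1.17 on plastic (SE 0.60, limma adjusted p 0.657), and the lowest were Eno3 in BME (-0.15) and Bpgm on plastic (-0.16).

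The 5 regulators Pfkfb1 to Pfkfb4 and Tigar set the level of fructose 2,6-bisphosphate, an activator of phosphofructokinase. Pfkfb3, the form with the highest kinase activity, was at 11.6, 15.0 and 23.1 FPKM untreated and 31.8, 24.1 and 32.2 with dox in plastic lines 560, 700 and 889, without overlap (7.87% of genes tested). The fitted change of Pfkfb3 on plastic was 0.83 (SE 0.28, limma adjusted p 0.547), and in BME it was 0.32 (SE 0.42, limma adjusted p 0.963). Pfkfb1 was the lowest on plastic at -0.48 (SE 0.19, limma adjusted p 0.589).

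Lactate handling was tested for 4 of 8 genes in each table. Slc16a1 and Slc16a3 encode the lactate transporters MCT1 and MCT4, of which MCT4 is best known for export. In BME, Slc16a1 was at 25.0 to 40.8 FPKM and Slc16a3 at 18.6 to 72.8 over the 6 libraries. Their fitted changes were 0.07 (SE 0.24, limma adjusted p 0.985) and 0.77 (SE 0.58, limma adjusted p 0.959). The BME dox pairs of Slc16a3 were split, with line 700 higher (0.28) and line 889 lower (-0.28). Both libraries of line 682, which were controls, had its lowest BME levels (18.6 FPKM each). Slc16a1 was lower with dox in both BME pairs (-0.01 and -0.42). On plastic, Slc16a3 was at 131, 30.1 and 18.7 FPKM untreated and 89.5, 48.5 and 54.8 with dox in lines 560, 700 and 889, a pattern in which line 560 again was the highest and moved the other way. Its fitted change there was 0.54 (SE 0.69, limma adjusted p 0.888) and that of Slc16a1 was 0.28 (SE 0.30, limma adjusted p 0.866). Ldhd, a mitochondrial D-lactate dehydrogenase, did not pass as fitted but passed under other settings. On plastic this gene was at 7.17 to 14.1 FPKM untreated and 67.5 to 164 with dox, a fitted change of 3.12 (SE 0.39, limma adjusted p 0.115), and the limma adjusted p was 0.0353 with the line as a replicate block and 0.0381 without dox line 700. In BME it was 3.16 (SE 0.62, limma adjusted p 0.959), and Ldhd was also higher in the mock library than in untreated line 682.

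All 8 genes of the pentose phosphate branch, which diverts glucose 6-phosphate to NADPH and ribose, were tested. On plastic 2 were higher and 6 lower with dox (median -0.27), and in BME 4 were higher and 4 lower (median -0.00092). G6pdx, the glucose 6-phosphate dehydrogenase that opens the branch, was at 168, 193 and 173 FPKM untreated and at 86.0, 101 and 92.0 with dox in plastic lines 560, 700 and 889. The groups did not overlap on plastic (7.26% of genes tested were lower without overlap), and in BME the 6 libraries lay between 87.3 and 99.0 FPKM. The fitted change of G6pdx was -0.93 (SE 0.18, limma adjusted p 0.230) on plastic and 0.02 (SE 0.13, limma adjusted p 0.993) in BME. The difference between the environments was -0.95 for G6pdx (SE 0.19, limma adjusted p 1.000), which did not pass. The plastic changes of Rpia and Tkt were -0.56 (limma adjusted p 0.587) and -0.51 (limma adjusted p 0.599), Tkt being named after its values were seen.

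Genes of the HIF pathway and its known readouts were examined beside the members. Hif1a was at 14.9 to 21.9 FPKM in BME and, on plastic, at 7.56, 23.5 and 27.5 untreated and 27.5, 24.7 and 41.4 with dox in lines 560, 700 and 889. Of the 20 genes listed, all were tested and none was called, while 17 were higher and 3 lower with dox in each table, with a median change of 0.18 in BME and 0.49 on plastic. By pair the median was 0.17 in BME line 700, -0.25 in BME line 889 and 0.17 in the mock pair, and 0.21, 0.37 and 0.64 in plastic lines 560, 700 and 889. In BME line 889, 16 of these 20 genes were lower, against 50.6% of all genes tested. P4ha1, a collagen prolyl hydroxylase, had the highest fitted change in BME (1.02, SE 0.49, limma adjusted p 0.959) and 1.21 (SE 0.45, limma adjusted p 0.567) on plastic. Within the BME dox pairs it changed by 0.50 in line 700 and 0.24 in line 889, against 0.56 in the mock pair. Adm, which encodes adrenomedullin, had a fitted change of 0.70 in BME and 1.82 on plastic (limma adjusted p 0.961 and 0.764). Within the BME dox pairs Adm was lower with dox, at -0.07 in line 700 and -0.14 in line 889. Arnt, Mxi1 and Hilpda, named after their values were seen, were at 0.54, 0.81 and 0.99 on plastic, with limma adjusted p of 0.581, 0.567 and 0.583.

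**Figure D5:**
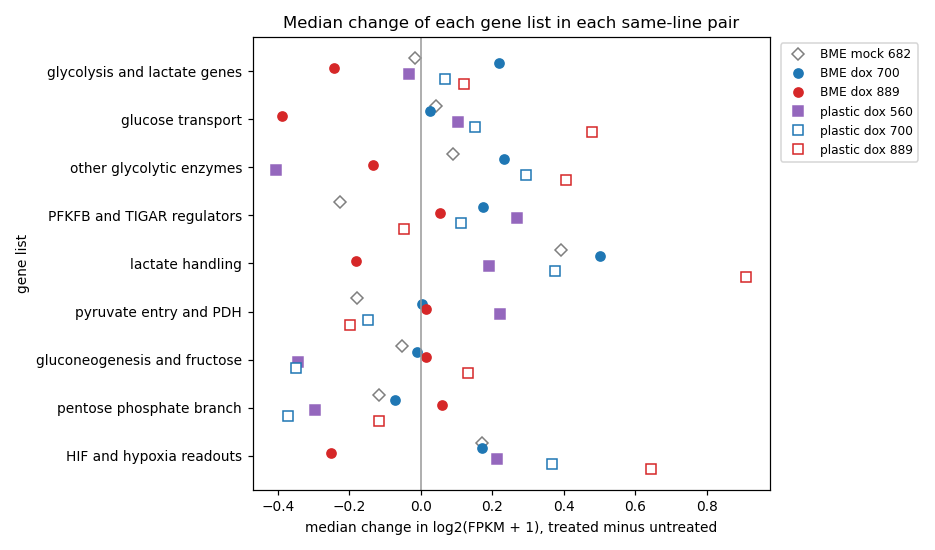
Median change in log2(FPKM + 1), treated minus untreated, of each gene list (rows) in each same-line pair (symbols, with the open diamond for the mock pair, circles for BME and squares for plastic). The group of 10 genes has medians between -0.24 and 0.22, and the HIF and hypoxia readouts are at -0.25 in BME line 889 and up to 0.64 in plastic line 889.

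All 7 proliferation markers had a lower fitted level with dox in both tables, with a median change of -0.75 in BME and -1.03 on plastic. Their summed level was 167 to 448 FPKM with dox and 304 to 460 untreated in BME, and 122 to 240 and 190 to 309 on plastic, and none was at 0. By pair their median change was -1.02 in BME line 700 and -0.09 in BME line 889, and -0.21, -1.19 and -1.35 in plastic lines 560, 700 and 889. None of the 7 epithelial markers passed the adjusted test either. Their summed level in BME was 7826 to 9772 FPKM with dox, 4156 to 5160 untreated and 4827 in the mock library. Most of it came from the keratins Krt8, Krt18 and Krt19. In BME the levels of Epcam, Vil1 and Cldn7 overlapped between dox and control libraries. Those of the keratins and of Cdh1 (381 and 392 FPKM with dox, 276 to 364 in the controls) were higher without overlap, as were 6.33% of genes tested. On plastic the summed ranges overlapped. There Krt19 (1633 to 3061 FPKM with dox, 3956 to 5718 untreated) and Cldn7 (177 to 230 and 234 to 340) were lower without overlap, as were 7.26% of genes tested. The part of proliferation or epithelial content in the changes of the glycolysis and lactate genes was not tested. The 7 enterocyte markers summed to 13.4 and 55.8 FPKM in the BME dox libraries, 3.43 to 19.1 in the untreated and 1.19 in the mock library, where Fabp1 and Apoa4 were at 0, and to 1.92 to 8.04 with dox and 1.84 to 5.17 untreated on plastic. Their part in the level of Pklr was not tested.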

How the data were processed

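RNA-Seq values of 12 organoid libraries were analysed in groups taken from the labels. Per the labels' processing notes, the submitters used kallisto, DESeq2 and the mm9 build, and versions are not given in the sources used here. The deposited FPKM tables, 1 per environment, were normalized by the authors on their own 6 libraries. The authors' deposited comparison tables hold a mean normalized count per gene (a signal), used here only with FPKM to rebuild reads, and fold changes, Wald scores and p-values, which were not used. For 83.4% to 88.0% of low values per library the rebuilt reads were whole (within 0.05), so rebuilt reads are approximate.

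The 10 genes and all lists were chosen with earlier results of these data known. A mean FPKM of 0.5 or more was required. log2(FPKM + 1) was compared between dox and control libraries in R 4.3.3 with limma 3.58.1 (two-sided, lmFit and eBayes with a trend), no block being used, and with Benjamini-Hochberg adjustment over all genes tested, and the script was tested on simulated data. Calls required an adjusted p under 0.05 together with a change of more than 1 either way. p-values measure the spread between lines and libraries. Libraries of a line were taken to come from the same animal. Their deviations correlated within every pair (r between 0.18 and 0.66), so the line was used as a replicate block in an alternative fit. For each list, the text names the called genes and the 2 highest and 2 lowest changes, or fewer, with direct neighbors of the 10 genes added, and some results are not reported here. Positions are from GENCODE M1 (NCBIM37), in which Pkm carries its older symbol Pkm2, and promoter windows from RefSeq (GRCm38.p6). Alternatives were another pseudocount (0.1), no filter, other scalings, limma-voom on rebuilt reads, the mock library left out or counted with dox, lines 700 and 889 only, and each library left out in turn. The scalings to FPKM sum and total reads and the fit without line 560 were added after seeing the data.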

Additional observations from a re-analysis of the deposited data

Results flagged for a closer look

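Pdk1 in untreated BME line 889 (50.2 FPKM) stood apart from the other 3 control libraries in BME (32.3 to 33.9 FPKM). Its gap to the nearest of them was 0.906 of the range of the group, above the critical value of 0.829 for 4 samples. The level of each of the 10 genes was examined in this way in the BME control arm, and chance would mark about 0.5 of 10. Without this library the fitted change of Pdk1 in BME was -0.10.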

How the results depend on the processing

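The count of called genes among the 10 stayed at 0 in BME, on plastic and for the environment difference under all alternatives run, and 563 values recomputed under an alternative kept their direction and side of the threshold or, where no test applies, moved by less than the spread, while 28 turned direction, 5 moved by more and 3 newly passed. The median change of the group in BME was -0.05 with the line as a block and -0.06 with the mock library counted with dox, against 0.16. With the line as a replicate block the BME changes of Hk2, Pfkp, Pgk1 and Pkm turned to -0.26, -0.30, -0.16 and -0.0027. Of the genes recomputed with the block, Ldhd on plastic newly passed and none was lost. Over all genes tested the block gave 0 calls in BME against 3 without it, and 7 on plastic against 4. With the mock library counted with dox the same 4 genes were at -0.073, -0.13, -0.22 and -0.048, and Pgk1 was at -0.076 without it. Pgk1 was at -0.024 in BME with an equal FPKM sum, and at -0.018 in BME and -0.024 on plastic with scaling to total reads. Without both libraries of line 560, Aldoa on plastic was at 0.20 and the median change of the group there at 0.13.

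Leaving out each library in turn gave a plastic median between -0.24 (without untreated line 889) and 0.24 (without untreated line 560). The BME median lay between 0.088 and 0.29. In BME the range was 0.12 to 0.71 for Hk1, 0.15 to 0.96 for Hk2, 0.069 to 0.31 for Pfkl, 0.056 to 0.25 for Pkm, 0.37 to 0.71 for Ldha, -0.30 to -0.097 for Pdk1, -0.18 to 0.48 for Pfkp, -0.21 to 0.60 for Aldoa, -0.22 to 0.33 for Pgk1 and -0.83 to 0.44 for Eno1. On plastic it was 0.015 to 0.25 for Hk1, 0.095 to 0.57 for Hk2, -1.09 to -0.13 for Pfkp, -0.81 to -0.02 for Eno1, 0.036 to 0.59 for Ldha, -0.57 to 0.18 for Pfkl, -0.28 to 0.23 for Aldoa, -0.19 to 0.24 for Pgk1, -0.033 to 0.46 for Pkm and -1.09 to 0.37 for Pdk1. Pck1 on plastic passed only without dox line 700 (6.22, limma adjusted p 0.0242). The causes were not tested. With 2 dox libraries in BME and 3 on plastic, the wide intervals limit what can be detected, while read depth was at least 231 rebuilt reads for any of the 10 genes.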

Other observations

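The lists of gluconeogenesis and pyruvate entry were not described above, apart from the total counts, the medians by pair, the PDH kinase shares and a result for Pck1. Pck1, the enzyme that opens gluconeogenesis from oxaloacetate, was at 198 FPKM in BME dox line 889 and at 0.143 FPKM or below in the other 5 BME libraries. On plastic it was at 175, 0.709 and 43.1 FPKM with dox and 0.527, 0.0592 and 0.0185 untreated in lines 560, 700 and 889, a fitted change of 4.33 (SE 1.56, limma adjusted p 0.567). Pck2, its mitochondrial counterpart, was at -0.37 in BME and -0.63 on plastic (limma adjusted p 0.959 and 0.650). The other genes of this list that were tested in BME lay between -0.22 (G6pc3) and 0.45 (Pcx).

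Of the 12 genes for pyruvate entry and PDH, 11 were tested and none was called, with a median change of 0.03 in BME and -0.0027 on plastic. Mpc2, a subunit of the mitochondrial pyruvate carrier, was at 0.22 and 0.19, Pdk2 at -0.23 and -0.0027, and Pdk3 at 0.10 and -0.27 in BME and on plastic (limma adjusted p 0.959 and 0.877, 0.964 and 1.000, and 0.977 and 0.762). In the mock pair all 11 were lower, against 51.1% of all genes tested, with a median change of -0.18, and scaling to an equal FPKM sum moved the median of all genes in that pair by 0.14.

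The mean of the 10 genes, each as log2(FPKM + 1) centered within its table, was compared with 11967 other genes over the 12 libraries. Among the genes most like it were Coq5 (Pearson r 0.955), 4930447F24Rik (0.950), Cutal (0.949) and Pak1 (0.949). Within the group, the correlation of a gene with the mean of the other 9 was highest for Ldha (0.880) and Pfkl (0.853) and lowest for Hk1 (0.268) and Eno1 (0.261). The points share lines and libraries, so these values are a description.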
